A study of Mus musculus with 4 samples.

Results

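Cd164 encodes a sialomucin, a heavily glycosylated membrane protein also known as endolyn. Its Argonaute-bound RNA was described here from every row with that gene symbol in 2 cytoplasmic cluster tables, that of mouse embryonic stem cells (ESCs) and that of myotubes formed by C2C12 cells. These were 13 clusters of 3548, of which 4 lay in the ESC table and 9 in the myotube table. A cluster is a short stretch of RNA covered by crosslinked reads. The gene was chosen by its read counts and cluster numbers in these tables, so those values are a description and carry no test.

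The ESCs carried a doxycycline-inducible transgene for AGO2 with HA and FLAG tags and were grown in serum with leukaemia inhibitory factor. The transgene was switched on with 2.5 ug/ml doxycycline for 15 h, and AGO2 was captured with an antibody against FLAG. The C2C12 cells, a mouse myoblast line, had fused for 2 days in low serum, and their own Argonaute proteins were captured with a peptide that binds the family. Both cell types were crosslinked at 312 nm for 5 min, and in both the cytoplasmic fraction was used. The titles carry a closing "(2)" that may number a replicate or count pooled samples, which the labels leave unsaid. Each table was taken as 1 library per cell type, so no difference has a replicate check. Cell type, Argonaute source and capture method changed together and cannot be told apart. RNA levels were not measured here, so more Cd164 RNA and more Argonaute per RNA cannot be told apart either.

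In the PAR-CLIP method, a photoactivatable nucleoside crosslinks to the bound protein and shows up as C in place of T when the RNA is sequenced, a T-to-C conversion. Argonaute carries a miRNA, whose bases 2 to 8, the seed, pair with the target, most often in the 3'UTR, and the pairing lowers the stability and translation of the mRNA. CD164 protein moves between the cell surface, endosomes and lysosomes. It is known as an adhesion molecule of blood progenitors that associates with the chemokine receptor CXCR4, and as a promoter of myoblast migration and fusion.

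In all, 214955 reads fell on 2659 clusters in ESCs and 135023 reads on 889 clusters in myotubes. Markers matched the labels in part. The ESC library had clusters on 7 of 12 ESC markers, Pou5f1 not among them, and the myotube library on 0 of 12. The myotube library had clusters on 7 of 14 myotube markers. The ESC library had them on 3 of these, with 12 reads on Mylpf, 5 on Tpm2 and 6 on Ttn. Stmn2, 1 of 6 neuron markers, had an ESC cluster of 6 reads, while blood (0 of 6) and fibroblast markers (0 of 6) had none. Their part in the Cd164 values was not tested.

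The Cd164 clusters fell on 9 sites of the plus strand of chromosome 10, within the RefSeq gene at 41519500 to 41531042 (GRCm38.p6, the assembly that mm10 names). The tables place sites 1 and 2 in the coding sequence and sites 3 to 9 in the 3'UTR. The myotube cluster sequences are shown, in DNA letters, because they are the RNA that Argonaute contacted and the only sequence in which miRNA sites were searched. Capitals mark the letters ACTAAT in sites 1 and 9, TGTACATA in site 4, a 6-base match to miR-206-3p in site 6 and a 7-base match to miR-300-5p in site 7.

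Site 1, coding, chr10:41521960-41521982, both libraries: ccacctttACTAATaatattacc
Site 2, coding, chr10:41526844-41526871, myotubes: ccttcctctcctacacctactccctcag
Site 3, 3'UTR, chr10:41529703-41529729, myotubes: tatcaaaccatctaacatttttcttag
Site 4, 3'UTR, chr10:41530360-41530382, myotubes: cacattTGTACATAtatctaatg
Site 5, 3'UTR, chr10:41530478-41530499, myotubes: ttcctcacaaaaatctatttca
Site 6, 3'UTR, chr10:41530554-41530573, both libraries: aatttcCATTCCttataaag
Site 7, 3'UTR, chr10:41530772-41530793, myotubes: aCTCTTCAccatctttctttag
Site 8, 3'UTR, chr10:41530892-41530919, both libraries: ttctatcaaataccttattttacctttg
Site 9, 3'UTR, chr10:41530972-41530996, both libraries: ttccttaaactacaaaACTAATatg

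All 4 ESC clusters, at sites 1, 6, 8 and 9, were overlapped by a myotube cluster on the same strand. The other 5 myotube sites had no ESC cluster. The boundaries were nearly the same. Sites 6 and 8 had identical ends in both libraries, the ESC cluster of site 1 began at 41521961, 1 nt further in, and that of site 9 ended at 41530995, 1 nt earlier. Over the tables, 6.04% of nuclear 3'UTR clusters in ESCs were overlapped by a myotube cluster, and 22% of those in myotubes by an ESC cluster. For nuclear coding clusters the shares were 2.51% and 18.4%. The 3 ESC and 7 myotube 3'UTR clusters of Cd164 are part of these totals. Of 80 nuclear genes with an overlapping pair on mRNA, 68 had 1 such pair and Cd164 had 4. A gene needs several clusters in both tables to reach 4 pairs, and only 3 of the 80 had at least 4 in each, namely Cd164, Qk and Scd2. The number of pairs is therefore bound to the cluster numbers by which Cd164 was chosen. Among these 3 genes, Qk had 2 of its 7 ESC clusters overlapped and Scd2 had 1 of 7. Identical 5' ends were common among the 77 overlapping 3'UTR pairs of other genes, in 60 pairs (77.9%), and both ends were the same in 38 (49.4%).

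The 3'UTR clusters were placed by their distance from the end of the gene. These distances were not set beside those of other genes, and the length of the 3'UTR was not examined. They spanned 1294 nt, and 6 of the 7 myotube clusters lay within 700 nt of the RefSeq gene end. Site 3 stood apart, 630 nt upstream of site 4. Neighbouring 3'UTR sites were otherwise at least 52 nt apart, with a median gap of 96.5 nt over all of them. Site 9 ended 46 nt before the gene end in myotubes and 47 nt before it in ESCs.

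**Figure D1:**
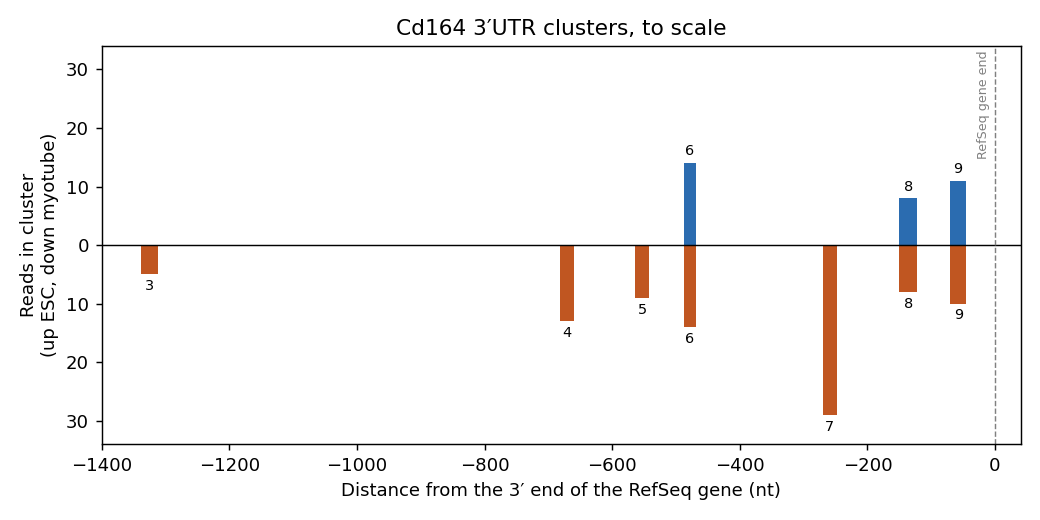
Cd164 3'UTR clusters drawn to scale by distance in nt from the 3' end of the RefSeq gene (dashed line), with the bar height giving reads in the cluster, ESC upward in blue and myotube downward in orange, and numbers naming the sites. Sites 6, 8 and 9 carry bars of similar height in both libraries, and sites 3, 4, 5 and 7 carry a myotube bar only, the tallest of them site 7 with 29 reads.

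Reads were close to equal at the shared 3'UTR sites. Site 6 had 14 reads in ESCs and 14 in myotubes, each from 6 distinct sequences. Site 8 had 8 reads in each library, again from 6 distinct sequences in each. Site 9 had 11 reads from 7 distinct sequences in ESCs and 10 reads from 4 in myotubes. These raw counts were not divided by the library totals. Equal counts of reads and of distinct sequences also occurred in 2 of the 77 overlapping 3'UTR pairs of other genes. The converted reads at sites 6 and 8 differed between the libraries, as given below.

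The shared coding site, site 1, had 6 reads from 3 distinct sequences in ESCs and 15 reads from 7 distinct sequences in myotubes. As a share of the library's cluster reads its log2 ratio of ESC over myotube was -1.99, with an exact conditional binomial 95% interval of -3.65 to -0.55. The ratio was -0.67 at site 6 (interval -1.85 to 0.51), -0.67 at site 8 (interval -2.28 to 0.94) and -0.53 at site 9 (interval -1.91 to 0.86). The 4 intervals overlap, and a difference between the coding and the 3'UTR sites was not tested. Over the 77 other pairs the median of this ratio was -0.29. All intervals here cover counting error only and treat each read as a separate RNA. Reads copied by PCR were not tagged per molecule, so the intervals are too narrow where reads are copies.

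The sites with no ESC cluster held 65 of the 112 myotube reads (58.0%), and the shared sites held 47, against 39 in ESCs. Sites in the first set were called in myotubes alone, so they could add reads to that library only. The leading site of all was site 7 with 29 myotube reads from 12 distinct sequences, 25.9% of the gene's reads. Site 4 had 13 reads, sites 2 and 5 had 9 each, and site 3 had 5. The smallest clusters had 4 reads in the whole ESC table and 5 in the myotube table, and each cluster had at least 2 conversion positions. Where no ESC cluster was called, 0 reads and reads below a calling limit cannot be told apart. Site 3 itself stood at the myotube limit.

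**Figure D2:**
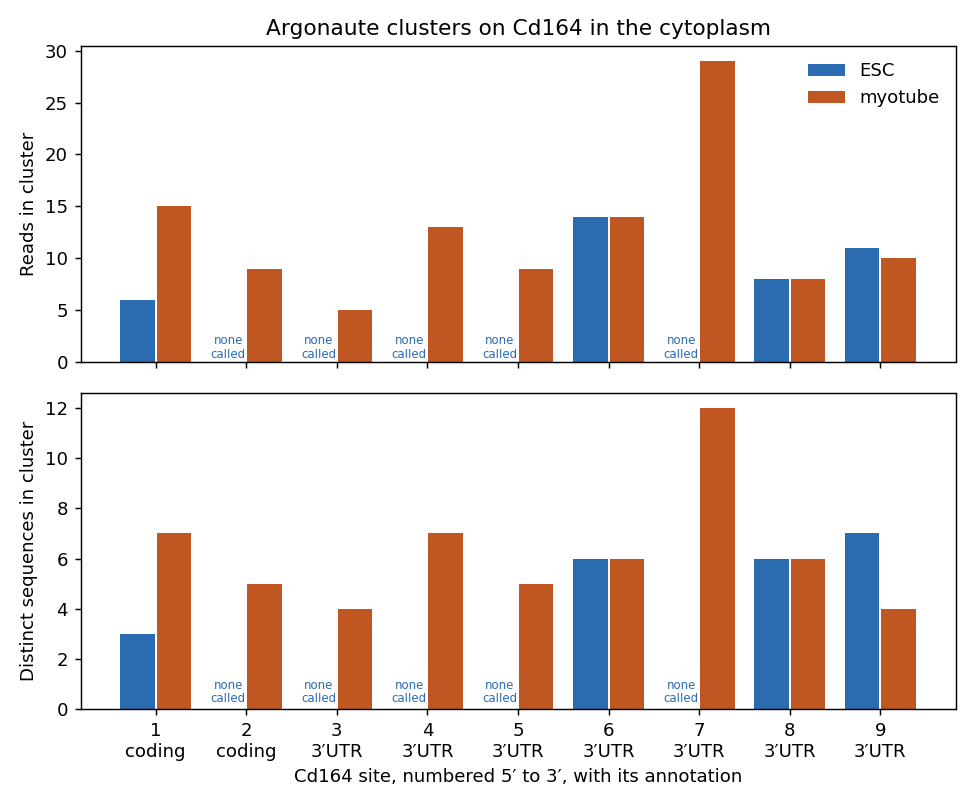
Bars show reads (top) and distinct sequences (bottom) per Cd164 cluster at sites 1 to 9, ESC in blue and myotube in orange, from 1 library each and with no error bar; sites without an ESC cluster are marked as none called. The libraries are level at sites 6 and 8 with 14 and 8 reads, and site 7 has 29 myotube reads and no ESC cluster.

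Over the whole gene, Cd164 had 39 reads in ESCs and 112 in myotubes, or 18.1 and 82.9 reads per 100000 cluster reads. The share was 4.57 times higher in myotubes (interval 3.15 to 6.76), a log2 ratio of ESC over myotube of -2.19 (interval -2.76 to -1.66). Of the 237 genes with a cluster in both tables, 27% were more than 2-fold lower in ESCs and 53.6% were past 2-fold in either direction. Cd164 had the 16th lowest ratio of the 237, and the median was -0.04. At the shared sites alone the ratio was -0.94 (interval -1.59 to -0.30). The ratio of the gene was -1.71 with all mRNA reads as the total and -1.89 with the reads of the common genes. With nuclear mRNA reads as the total, 22252 in ESCs and 4820 in myotubes, it was -3.73. That total moved the median of all common genes by -1.54. It left 157 of the 237 genes more than 2-fold lower and 15 more than 2-fold higher in ESCs, against 64 and 63 with all cluster reads. A change of total adds the same constant to each gene, so the distance of Cd164 from the median, -2.15, is fixed by construction.

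More of the gene was called in myotubes. The clusters covered 94 nt in ESCs and 218 nt in myotubes. The ESC density was 0.415 reads per nt and the myotube density 0.514, or 0.490 at the shared and 0.533 at the other myotube sites. These are raw reads per nt. Per 100000 cluster reads of the library, the density was 0.193 for ESCs and 0.380 for myotubes, the higher of the 2. Each distinct sequence was read on average 1.77 times in ESCs and 2 times in myotubes. Coding clusters held 6 of the ESC reads (15.4%) and 24 of the myotube reads (21.4%), and the 3'UTR held 33 and 88.

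The place of the gene among nuclear mRNAs was high in myotubes. By reads it ranked 2 of 331 genes with a nuclear mRNA cluster, after Tmsb4x with 189 reads and before Mylpf with 110. By number of clusters and by distinct sequences, 56 in all, it ranked 1. In ESCs it ranked 112 of 1217 by reads, 39 by number of clusters and 63 by its 22 distinct sequences. Most genes had a single cluster, 868 in ESCs and 255 in myotubes. By reads per nt the ranks were 467 and 57; the density of the Cd164 clusters thus ranked lower than their number.

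T-to-C conversion, the mark of crosslinking, was present at every site. This holds for any cluster of the 2 tables, since each had at least 2 conversion positions. In ESCs 26 of 39 Cd164 reads were converted (66.7%, exact Clopper-Pearson 95% interval 49.8 to 80.9). In myotubes 82 of 112 were converted (73.2%, interval 64.0 to 81.1), with 74.5% at the shared sites and 72.3% at the others. The pooled share over all 3'UTR clusters was 68.0% in ESCs and 81.4% in myotubes, the latter just above the interval for Cd164. The Cd164 shares also include its coding clusters. In ESCs the median over clusters was 78.0% for Cd164 and 77.8% for all 3'UTR clusters. In myotubes these medians were 71.4% and 90%, the latter with a lower quartile of 71.4%. Within the gene, the lowest share was that of site 6 in ESCs, with 6 of 14 reads converted (42.9%, interval 17.7 to 71.1). The same site had 10 of 14 in myotubes (71.4%, interval 41.9 to 91.6), and the intervals overlapped. At site 8, 7 of 8 reads were converted in ESCs and 6 of 8 in myotubes. The remaining myotube shares ran from 66.7% at sites 1 and 5 to 90% at site 9.

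Conversions were spread over many T positions. In ESCs 13 of the 38 T bases in the cluster sequences carried a conversion (34.2%), and in myotubes 36 of 84 (42.9%). At the shared sites alone the myotube count was 15 of 38 (39.5%). Site 7 had the most, with conversions at 8 of its 10 T bases. Over all 3'UTR clusters the pooled share was 34.5% in ESCs and 29.5% in myotubes. A site with more reads has more chances to show each position, so this share moves with depth.

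The deposited share of reads ending in G differed between the libraries at Cd164. RNase T1 cuts RNA after G, so fragments cut on their 3' side by it end in G. In myotubes 95 of 112 Cd164 reads ended in G (84.8%, interval 76.8 to 90.9), and at the shared sites 42 of 47 (89.4%, interval 76.9 to 96.5). In ESCs 22 of 39 did (56.4%, interval 39.6 to 72.2). All 14 reads of site 6 ended in G in both libraries. The share was 33.3% in ESCs and 86.7% in myotubes at site 1, 37.5% and 62.5% at site 8, and 27.3% and 100% at site 9. The myotube share was thus higher at 3 shared sites and equal at 1. The cluster sequences of site 1 in both libraries, of site 5 and of site 9 in ESCs hold no G. Reads there were still deposited as ending in G, 77.8% of them at site 5. The share thus cannot be read from the cluster sequence alone, and what it counts at these sites was not tested.

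The deposited end-G share can be compared among plus-strand clusters only. On the minus strand its median was 0% in both libraries, although 92.7% of minus-strand 3'UTR cluster sequences in ESCs and 94.2% in myotubes end in G. Over plus-strand 3'UTR clusters the pooled share was 73.3% in ESCs and 76.8% in myotubes, and the median over clusters was 84% and 100%. The Cd164 totals given above also include its coding clusters. Among the 46 plus-strand pairs of other genes, the end-G share was higher in myotubes in 29, higher in ESCs in 10 and equal in 7. The mode position that the tables give for each cluster also lay further 3' in myotubes at all 4 shared Cd164 sites, by 18, 5, 5 and 9 nt at sites 1, 6, 8 and 9. Among the 77 other 3'UTR pairs it lay further 3' in myotubes in 41 and further 5' in 29.

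**Figure D3:**
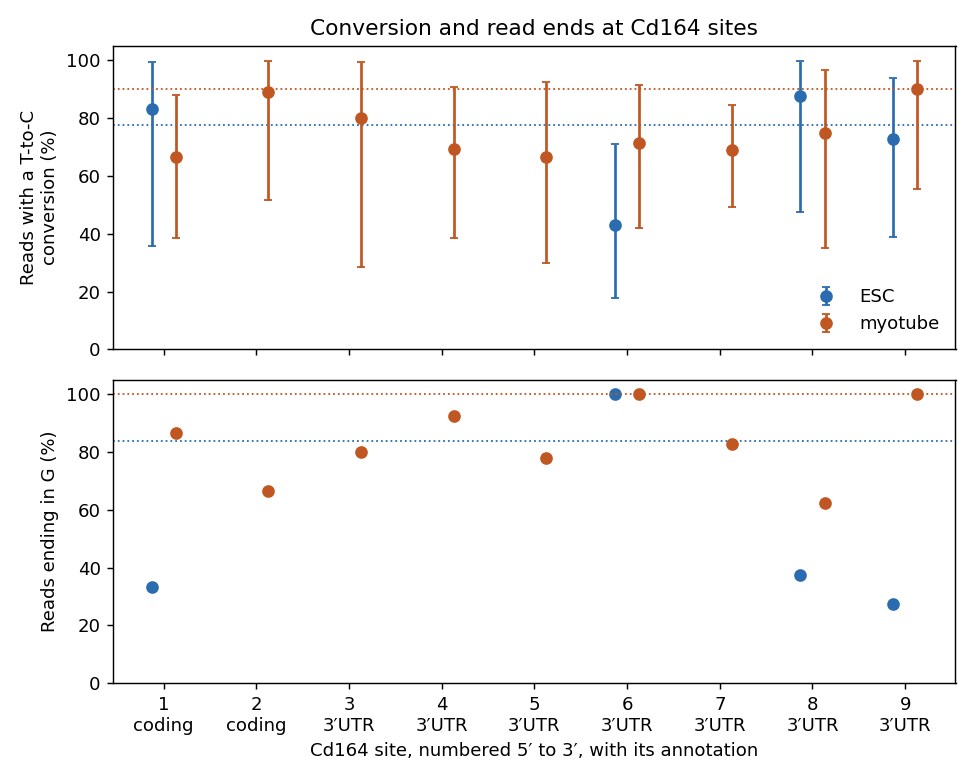
The upper panel shows the percentage of reads with a T-to-C conversion at each Cd164 site with exact 95% intervals, and the lower panel the percentage of reads ending in G; dotted lines are the medians of all 3'UTR clusters (upper) and of plus-strand 3'UTR clusters (lower) of each library, ESC in blue and myotube in orange. Conversion intervals overlap at every shared site, and the ESC end-G points at sites 1, 8 and 9, between 27.3% and 37.5%, lie below the myotube points.

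The sequences contained little G, with 2.13% G in ESCs and 3.67% in myotubes, against 6.51% and 5.03% over all 3'UTR clusters. All 4 ESC and 8 of 9 myotube sequences had no G before their last base, and the same held for 72.0% and 83.2% of all 3'UTR clusters. Site 4 was the exception in myotubes. T was the commonest base, with 40.4% and 38.5%, close to the 38.4% and 39.8% of all 3'UTR clusters.

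The cluster sequences were then searched for sites of the mature arms of miRNA genes with a cluster in either table. An arm was searched whether or not a cluster covered it. Of 50 miRNA gene names with a cluster in either table, 42 matched the RefSeq miRNA table (GRCm38.p6), which gave 82 mature arms. A 7-base site, the complement of miRNA bases 2 to 8, was found in 0 of 4 ESC clusters and in 1 of 9 myotube clusters. Any such site was held by 16.5% of ESC and 19.0% of myotube 3'UTR clusters. With only the arms that overlapped a cluster, the counts were again 0 of 4 and 1 of 9. A site of these arms was held by 4.91% and 7.71% of 3'UTR clusters. The match was the site CTCTTCA of miR-300-5p in site 7, the Cd164 cluster with the most reads. This motif also lay in 25 ESC clusters (0.940%) and 11 myotube clusters (1.24%). The miR-300-5p arm was covered by an ESC cluster of 82 reads and by no myotube cluster, whereas site 7 had a myotube cluster only. The miR-300-5p arm and its Cd164 match thus had clusters in different libraries. A missing cluster does not show that a miRNA was absent.

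With 6-base sites, complementary to miRNA bases 2 to 7, 1 ESC cluster and 3 myotube clusters held a match. Such sites were common, in 46.4% and 52.6% of 3'UTR clusters. The match shared by both libraries was CATTCC in site 6, the complement of bases 2 to 7 of miR-206-3p, a miRNA of skeletal muscle. Any miRNA outside the 82 searched arms with the same bases 2 to 7 would match it too. CATTCC was found in 2.93% of ESC and 2.59% of myotube clusters. The Mir206 cluster in myotubes, with 184 reads, covered the opposite arm, miR-206-5p, and no cluster covered miR-206-3p in either table. The other 6-base matches were those of miR-135b-3p and miR-149-3p in site 2 and the shorter form of the miR-300-5p site. Both matched miRNAs of the shared and the leading site are shown with the seed in capitals, from the RefSeq table.

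miR-206-3p: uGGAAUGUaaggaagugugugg
miR-300-5p: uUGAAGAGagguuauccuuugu

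With all 1738 mature mouse miRNAs of the table, all 4 ESC and 7 of 9 myotube clusters held a 7-base site. So did 78.0% and 75.2% of 3'UTR clusters, so most clusters hold a match in this wide search. The search stopped at the ends of each cluster, so neighbouring sequence was left out.

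Motifs known for other RNA-binding proteins were read in the same sequences, and these were chosen after the sequences had been seen. ACTAAT and ACTAAC are forms of the element bound by the STAR protein Quaking. ACTAAT lay in site 1 and site 9 in both libraries, and ACTAAC in none of the Cd164 clusters. Over clusters of 20 to 28 nt, the length range of the Cd164 clusters, ACTAAT lay in 1.56% in ESCs and 1.24% in myotubes. TGTANATA, the element of Pumilio proteins, lay in site 4, and in 0.452% and 0.549% of clusters of that length. The Cd164 clusters are part of these shares. They were 2 of the 38 ESC and 2 of the 9 myotube clusters with ACTAAT, and 1 of the 4 myotube clusters with TGTANATA. No Cd164 cluster held any of these 3 motifs on the opposite strand, and the motifs do not overlap each other. For ACTAAT and ACTAAC the opposite-strand form has a G before its last base. Apart from site 4, the Cd164 sequences had no G there, so this absence says nothing about the matches. The matches are letters in a window, and binding by these proteins was not measured here.

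The genes with the most similar values were Qk, Scd2, Tmsb4x, Gabarap and Cnot6l, out of 116 other genes with a 3'UTR cluster in both tables. Likeness was the Euclidean distance over 4 values, the log2 reads and log2 cluster numbers of the 2 libraries. Qk, which encodes Quaking, was nearest at 1.69, with 7 clusters in each library, of 80 ESC reads and 56 myotube reads. Scd2, a fatty acid desaturase, followed at 1.94 with 71 and 56 reads. Tmsb4x, which encodes thymosin beta 4, stood at 2.02 with 41 and 189 reads. Gabarap, a protein of autophagosome formation, stood at 2.10 with 65 and 53 reads, and the deadenylase gene Cnot6l at 2.35 with 44 and 65 reads. Of these 5, Tmsb4x had a read share ratio near that of Cd164, at -2.88, and the other 4 lay between -1.23 and -0.16. All 3 ESC clusters of Gabarap and both of Tmsb4x were overlapped by a myotube cluster, against 2 of 7 for Qk.

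**Figure D4:**
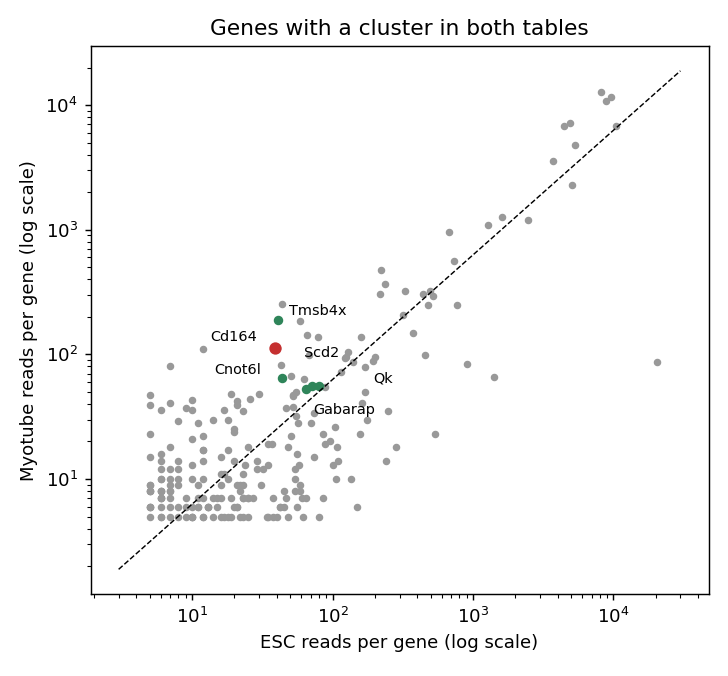
Each point is 1 of the 237 genes with a cluster in both tables, with ESC reads on the horizontal and myotube reads on the vertical axis, both logarithmic; the dashed line marks equal shares of the library totals, Cd164 is red and the 5 genes most like it are green. Cd164, at 39 and 112 reads, lies above the line, as do Tmsb4x and Cnot6l, and Qk, Scd2 and Gabarap lie near it.

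Lists of related genes were then looked up in both tables. Of 17 genes for other sialomucins, mucin-like surface proteins and the CXCR4 axis, 0 had a cluster in either library. These included Cxcr4, its ligand gene Cxcl12 and the sialomucin genes Cd34 and Podxl. Of 21900 RefSeq protein-coding genes, 5.71% had an ESC cluster, 1.6% a myotube cluster and 0.763% both. With shares this low, 0 of 17 genes does not stand apart. Absence from the tables cannot be told apart from low RNA.

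The next list held genes of the late endosome and lysosome, the compartments through which CD164 moves. Of 29 such genes, 7 were bound in the ESC library, 8 in the myotube library and 5 in both, beside the 5.71%, 1.6% and 0.763% of protein-coding genes. The list is of well-known genes and was chosen with earlier results known, and a difference from other genes was not tested. Those in both did not share one direction. Laptm4a, a lysosomal membrane protein gene, had 23 ESC and 35 myotube reads, a log2 ratio of -1.28 (interval -2.10 to -0.48), the same direction as Cd164. The tetraspanin gene Cd81 had 100 and 13 reads and a ratio of 2.27 (interval 1.43 to 3.23). Lamp2, a main glycoprotein of the lysosomal membrane, had 27 and 7 reads (1.28, interval 0.04 to 2.72). Its relative Lamp1 had 12 and 14 reads (-0.89, interval -2.14 to 0.33), and the proton pump subunit gene Atp6v1a had 23 and 9 reads (0.68, interval -0.48 to 1.98). The sorting genes Ap3b1 (7 reads) and Igf2r (9 reads) had a cluster in ESCs only, and the cathepsin genes Ctsl (15 reads) and Ctsb (6 reads) and Laptm4b (5 reads) in myotubes only.

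Of 27 genes of myoblast migration and fusion, 2 had a cluster in each library and 0 in both. Among protein-coding genes, 5.71% had an ESC cluster and 1.6% a myotube cluster, and a difference from these shares was not tested. The share with clusters in both tables was 13.9% among the 1707 symbols found in either, so 0 of these 4 genes does not stand apart. In myotubes these were the adhesion molecule gene Ncam1, with 26 reads in 3 clusters, and the laminin receptor subunit gene Itga7, with 6 reads. In ESCs they were the small GTPase gene Cdc42, with 22 reads, and the integrin subunit gene Itgb1, with 13 reads. The fusion proteins Myomaker and Myomixer, encoded by Mymk and Mymx, had no cluster.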

How the data were processed

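Cluster tables of 2 of the 4 samples, the ESC and myotube cytoplasm, were used, and each was assigned by its worksheet name. The nuclear samples were not analysed here. Per the submitters' processing notes, bcl2fastq 2.17.1 was run and mm10 was the genome build. Which aligner and cluster caller were run was not given in the sources used here. Reads, distinct sequences and conversions were deposited as raw counts per cluster. Converted and end-G shares were deposited as a fraction, and the mode's score was deposited as a score that was not used in any comparison. Every cluster had at least 2 conversion positions. The read count equalled the sum of its 3 deposited mismatch classes in 99.5% of ESC and 99.4% of myotube clusters. Cluster bases equalled RefSeq's in 46 of 46 overlaps with mature miRNAs, so coordinates were taken as 1-based on GRCm38.

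Read shares were compared as a log2 ratio with exact conditional binomial intervals, and other shares had Clopper-Pearson intervals (Python 3.11.15, scipy 1.17.1). Overlap meant at least 1 nt on the same strand. The 5 mRNA classes were 3'UTR, 5'UTR, coding, start codon and stop codon. Interval coverage, overlaps and site searches were tested on simulated data. The simulated read counts held no PCR copies, so coverage with copied reads was not tested. Named genes were Cd164, list members with a cluster, the 5 most similar genes and miRNAs with a site. Mylpf was named as a neighbour in rank after its value was seen. The members and lists were chosen with earlier results of these data known.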

Additional observations from a re-analysis of the deposited data

How the results depend on the processing

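The Cd164 read share ratio stayed below 0 under each alternative run. It was -3.73 with nuclear mRNA reads as the total and -0.94 at the shared sites alone, a choice added after seeing the data, which leaves out the myotube-only sites by construction. With at least 10 reads per cluster, 2 ESC and 5 myotube clusters remained. With 6-base miRNA sites 1 ESC and 3 myotube clusters held a match, with 6 bases followed by A 0 in myotubes, and with all miRNAs 4 and 7. The ESC rank was 39 by clusters, 63 by distinct sequences and 467 by reads per nt, and the myotube rank was 1, 1 and 57. The cause of the rank changes was not tested. Overlaps, conversion shares and the share of the leading cluster stayed within 1.5 times the reported count or within the interval of the reported share. With 6 to 15 reads per library at each shared site, smaller differences were not detectable at this depth. No paired analysis was possible because each group had 1 library.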
